A study of Homo sapiens with 6 samples.

Results

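Zinc finger genes of human chromosome 19 were examined in RNA from 293T cells given a GFP-812 plasmid or a GFP plasmid. Members were chosen by position, name and level: rows of the deposited table on chromosome 19 whose symbol is ZNF followed by a number and at most 1 letter, with a mean of at least 1 FPKM over all 6 libraries. FPKM divides a gene's count by its exonic length and by the total of its library. The rule kept 141 genes, of 263 such symbols on the chromosome and 61806 genes in the table, and all 141 were tested. Since the rule used the level, the levels below are a description; the contrast between plasmids was not part of the rule.

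The 293T line is an established human embryonic kidney line. A lipid reagent carried a plasmid labelled GFP-812 into the cells of 3 libraries and a plasmid labelled GFP into the cells of the other 3, so that both groups were transfected and both carried a plasmid named for the green fluorescent protein. The series title names truncated mutants of the kinase NEK1, and the labels explain neither the number in the name GFP-812 nor what share of the cells took up a plasmid. In bulk RNA, fewer cells carrying a transcript and less of it per cell cannot be told apart. The labels do not tell whether replicates were separate cultures, and p-values therefore measure spread between libraries alone, which may be technical.

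Library totals ran from 14255148 to 17613814 counts. NEK1 stood at 562.7, 518.3 and 493.7 FPKM in GFP-812 libraries, against 3.82, 3.99 and 3.91 FPKM in GFP libraries, high in every library labelled GFP-812 and low in every one labelled GFP (edgeR log2 fold change 7.08, adjusted p = 4.5e-70; exact 2-sided permutation p = 0.1, the smallest that 3 against 3 allows). Of 6 epithelial markers the cytokeratins KRT8 and KRT18 reached a mean of 1 FPKM, and the list summed to 27.0 to 29.9 FPKM in GFP-812 libraries and 25.9 to 26.6 FPKM in GFP libraries. Of 5 kidney tubule markers LRP2 alone reached 1 FPKM, with UMOD at 0, and the list summed to 2.12 to 2.45 FPKM in GFP-812 and 1.96 to 2.29 FPKM in GFP libraries. Of 4 fibroblast markers COL1A1 alone reached 1 FPKM (sums 1.92 to 2.41 FPKM in GFP-812, 1.76 to 2.18 FPKM in GFP libraries). No endothelial marker of 3 did (sums 0.02 to 0.03 FPKM in GFP-812, 0.03 to 0.04 FPKM in GFP libraries), nor any blood marker of 4 (sums 0 to 0.08 FPKM in GFP-812, 0.11 to 0.38 FPKM in GFP libraries), with PTPRC and HBB at 0. Of 4 neuronal markers only NEFM and NEFL, neurofilament subunits, reached 1 FPKM, with TUBB3 and ELAVL3 at means of 0.067 and 0.013 FPKM. NEFM and NEFL rose in GFP-812 cells (edgeR log2 fold changes 0.30 and 0.17, adjusted p = 1.5e-05 and 0.0372). The list summed to 94.6 to 105.4 FPKM in GFP-812 libraries and 79.9 to 91.3 FPKM in GFP libraries, nearly all of it from NEFM and NEFL. The part of NEFM and NEFL in the results below was not tested.

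Most proteins of this family bind DNA through a row of C2H2 zinc fingers, each a short loop in which a pair of cysteines and a pair of histidines hold a zinc ion. Many also carry a KRAB domain, which recruits TRIM28 (KAP1) and through it the histone methyltransferase SETDB1, and so represses transposable elements and other targets. The genes arose by tandem duplication, which left them in large clusters on chromosome 19, with neighbours that resemble one another.

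In the longest reading frame of each gene's GENCODE 29 transcripts, found for 140 of the 141 genes, 118 (84.3%) matched a KRAB pattern, against 79 of 199 (39.7%) zinc finger genes of other chromosomes at the same level. No frame was found for ZNF887P, whose final letter P the rule for symbols allows. The median was 12 fingers, with a range of 0 to 29, against a median of 9 on other chromosomes. ZNF850 had the most fingers, 29, and the longest frame, 1090 codons. The 5 genes whose level fell in GFP-812 cells are represented here by their first finger of the usual spacing, with the codons of the zinc-holding cysteines and histidines in capitals, because the finger is the unit by which these genes differ. Each was read from the GENCODE 29 transcript on GRCh38, the build of the deposited coordinates, 5′ to 3′ on the gene's own strand.
ZNF254: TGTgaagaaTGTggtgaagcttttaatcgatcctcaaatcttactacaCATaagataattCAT
ZNF317: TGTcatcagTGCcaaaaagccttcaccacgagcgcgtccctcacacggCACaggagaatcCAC
ZNF430: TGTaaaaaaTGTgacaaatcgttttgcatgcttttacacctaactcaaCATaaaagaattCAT
ZNF507: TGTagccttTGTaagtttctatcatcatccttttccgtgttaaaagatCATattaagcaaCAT
ZNF888: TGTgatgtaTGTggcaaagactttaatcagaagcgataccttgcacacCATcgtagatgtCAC

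These fingers lie at chr19:24126802-24126864 (plus strand, exon 4 of 4) for ZNF254, chr19:9160315-9160377 (plus, exon 7 of 7) for ZNF317, chr19:21056927-21056989 (plus, exon 5 of 5) for ZNF430, chr19:32353209-32353271 (plus, exon 3 of 8) for ZNF507 and chr19:52907530-52907592 (minus, exon 5 of 5) for ZNF888. All are coding, and in 4 of the 5 genes the finger sits in the last exon. Of 63 bases, ZNF254 and ZNF430, which lie in the same stretch of the chromosome, shared 39. ZNF888, from another stretch, shared 36 with ZNF254 and 34 with ZNF430. ZNF317, also from another stretch, shared 30 with ZNF254, 33 with ZNF430 and 33 with ZNF888. The zinc-holding codons are set by the choice of finger, apart from their last base, so part of each count was fixed in advance. ZNF507, the single one of the 5 with no KRAB match, shared 18 to 25 bases with the others.

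In GFP-812 cells 5 of the 141 genes fell, 0 rose and 136 did not pass the test (edgeR quasi-likelihood test, Benjamini-Hochberg adjusted p under 0.05 over 16834 genes). Across all genes tested 2.67% fell and 1.18% rose (3.84% in either direction), and among those at a mean of at least 1 FPKM 3.41% fell, so that the share of 3.55% among the chromosome 19 genes lay near the background. At an unadjusted p under 0.05, 32 of the 141 members were lower and 3 higher. Of the 16834 genes tested, 1498 (8.9%) were lower and 1219 (7.24%) higher. Among those at a mean of at least 1 FPKM, 1356 of 12563 were lower and 990 higher. The count of risen members was also 0 in limma-voom. Fallen members numbered 5, 1 and 2 without GFP-812 replicate 1, 2 or 3, when 1.97%, 0.851% and 1.21% of all genes tested fell. Of these, 3, 1 and 1 were among the 5 called with all libraries. Without GFP replicate 1, 2 or 3, fallen members numbered 0, 3 and 10, when 1.07%, 1.76% and 4.69% of all genes tested fell. Limma on log2(FPKM + 1) called 4 of 12984 genes in all, so its 0 fallen and 0 risen members carry little weight. DESeq2 gave an adjusted p to 5754 genes, of which 6.17% fell. Among them were 12 members, of which 0 rose and 2 fell, ZNF317 and ZNF507. ZNF254, ZNF888 and ZNF430 were not among the 12.

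ZNF254, a KRAB gene with 13 fingers (ENSG00000213096, hg38 chromosome 19, 24033405 to 24129968, plus strand), had the smallest p. It stood at 2.86, 2.58 and 2.92 FPKM in GFP-812 libraries, against 4.26, 3.83 and 3.12 FPKM in GFP libraries. All GFP-812 values lay below all GFP values, and GFP replicate 3 was the closest to them. The fall was 24.8% (log2 fold change -0.41, SE 0.0933, edgeR adjusted p = 0.0041). Without GFP replicate 1 or GFP-812 replicate 2 the call was lost (adjusted p = 0.132 and 0.0874; 3.53e-05 to 0.269 over all alternatives).

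ZNF317, a KRAB gene with 13 fingers (ENSG00000130803, 9140397 to 9163424, plus strand), stood at 9.3, 9.48 and 8.77 FPKM in GFP-812 libraries, against 11.2, 11.4 and 10.5 FPKM in GFP libraries. The groups did not overlap, and the gap exceeded the spread within either. ZNF317 fell by 16.1% (log2 fold change -0.25, SE 0.0638, edgeR adjusted p = 0.012). Fits that left out GFP replicate 1, GFP replicate 2 or GFP-812 replicate 3 lost the call (adjusted p 0.0556 to 0.139).

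ZNF888, a KRAB gene with 17 fingers (ENSG00000213793, 52904415 to 52923470, minus strand), stood at 2.36, 2.7 and 2.38 FPKM in GFP-812 libraries, against 3.6, 3.14 and 3.26 FPKM in GFP libraries. Again no value of one group reached the other. ZNF888 fell by 25% (log2 fold change -0.41, SE 0.117, edgeR adjusted p = 0.0298), and the call was lost without any 1 of the GFP-812 libraries or without GFP replicate 1 (adjusted p 0.0536 to 0.201).

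ZNF430, a KRAB gene with 11 fingers (ENSG00000118620, 21020634 to 21060050, plus strand), stood at 3.45, 2.95 and 2.99 FPKM in GFP-812 libraries, against 4.2, 3.62 and 3.89 FPKM in GFP libraries. GFP-812 replicate 1 came closest to the GFP range without reaching it. ZNF430 fell by 19.3% (log2 fold change -0.31, SE 0.0897, edgeR adjusted p = 0.0358). Leaving out GFP replicate 1, GFP-812 replicate 2 or GFP-812 replicate 3 ended the call (adjusted p 0.191 to 0.253).

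ZNF507 (ENSG00000168813, 32345594 to 32387667, plus strand) has 9 fingers and no KRAB match. It stood at 9.09, 9.33 and 9.77 FPKM in GFP-812 libraries, against 10.7, 11.2 and 10.1 FPKM in GFP libraries. The groups did not overlap, though GFP-812 replicate 3 and GFP replicate 3 lay close together. Its fall was the smallest of the 5 (log2 fold change -0.17, SE 0.0498, edgeR adjusted p = 0.042). Its call was lost without any single library except GFP replicate 3 (adjusted p 0.0781 to 0.213), and once GC content and exonic size were corrected for (adjusted p = 0.0675).

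**Figure D1:**
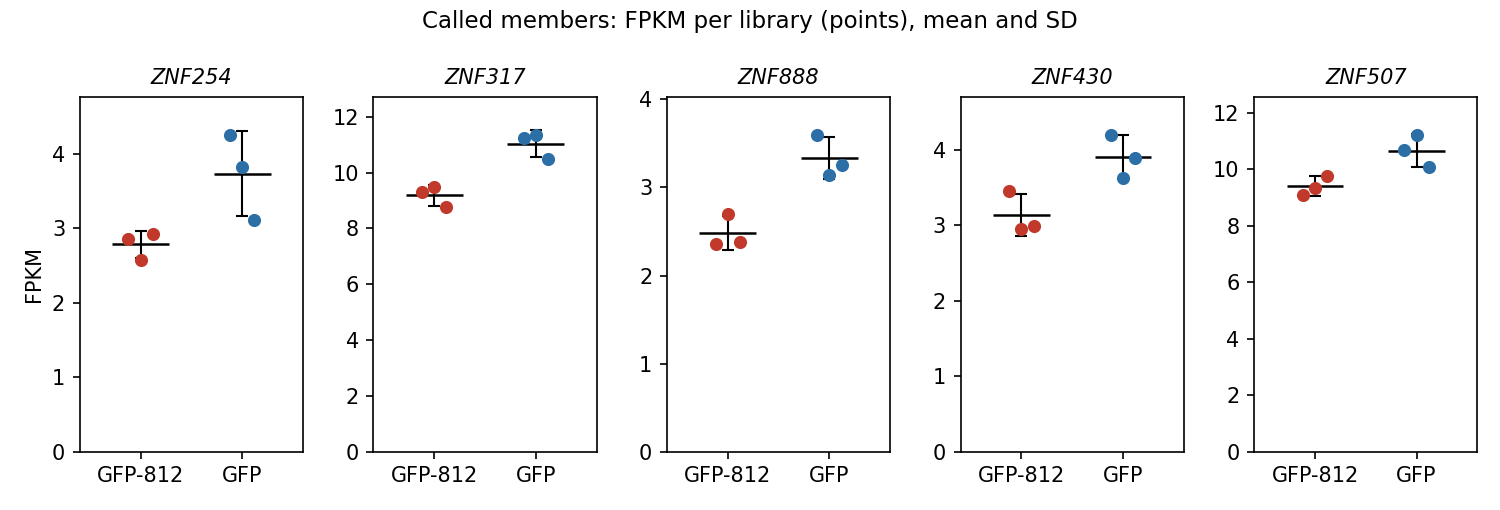
FPKM of the 5 fallen genes in each library, GFP-812 left and GFP right, with a line at the mean and bars of 1 SD over 3 libraries; each vertical axis starts at 0. In every panel the GFP-812 points lie below the GFP points, with ZNF254 at 2.58 to 2.92 FPKM in GFP-812 and 3.12 to 4.26 FPKM in GFP libraries.

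Of the 136 members that did not pass, 100 (73.5%) had a fitted log2 fold change below 0. With the 5 fallen genes the count was 105 of the 141 (74.5%), against 48.2% of all genes tested, and the median was -0.09 against 0.01 over all genes tested. The members' quartiles were -0.19 and 0.01, and the full range was -0.48 for ZNF114 (SE 0.216, adjusted p = 0.24) to 0.36 for ZNF414 (SE 0.239, adjusted p = 0.469). In 29 members (20.6%) all GFP-812 libraries lay below all GFP libraries in log2 CPM, against 10.8% of all genes tested. In 6 members (4.26%) they lay above, against 9.75%. Among genes tested at a mean of at least 1 FPKM, 49.8% were below 0, 12.5% lower without overlap and 10.0% higher without overlap. The SE of a single member's log2 fold change had a median of 0.116.

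Values of 2 other sets stood beside these. Of 204 zinc finger genes of other chromosomes at a mean of at least 1 FPKM, 15 fell (7.35%), 2 rose and 187 did not pass, at a median of -0.06, with 139 (68.1%) below 0 and 20.1% lower without overlap. Of 652 other genes of chromosome 19 at that level 12 fell, 11 rose and 629 did not pass, at a median of 0.03 with 43.4% below 0. At an unadjusted edgeR p under 0.05, 46 of the 204 were lower and 5 higher, and 45 of the 652 were lower and 67 higher. No test of the difference between these sets was run.

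**Figure D2:**
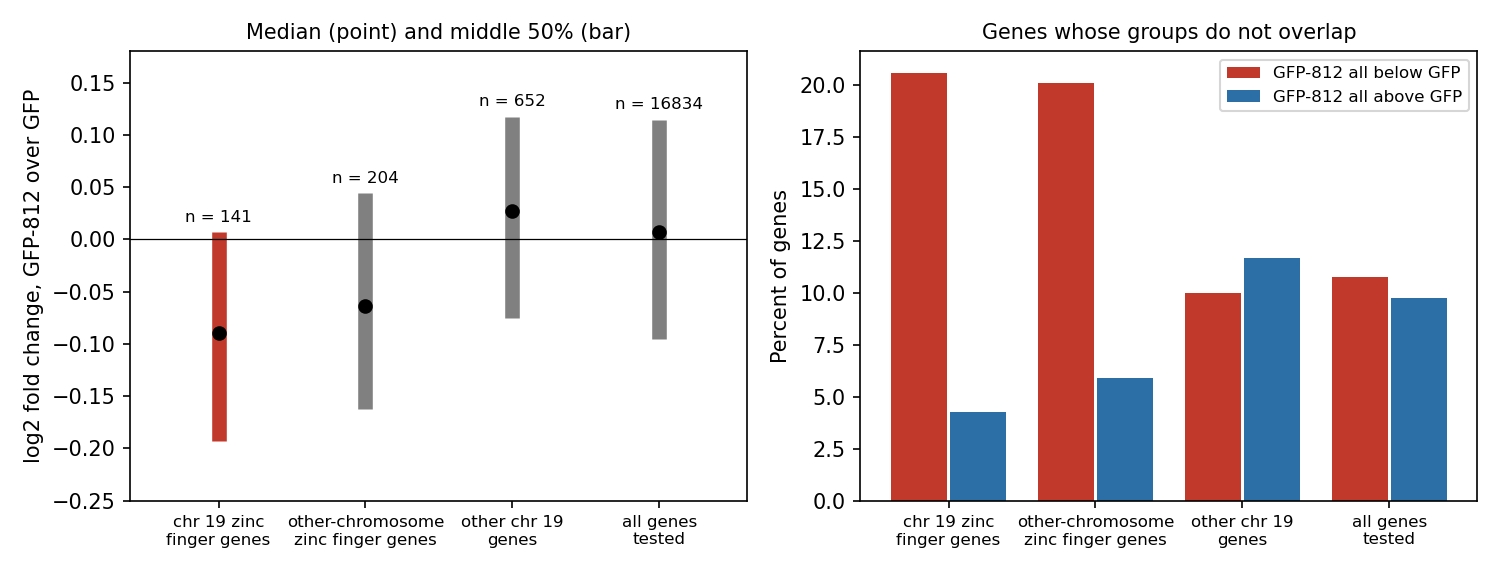
Left, the median and interquartile range of the log2 fold changes (GFP-812 over GFP) in 4 sets of genes; right, the percent of genes in each set whose GFP-812 libraries all lie below, or all above, the GFP libraries. The chromosome 19 zinc finger genes have a median of -0.09 and the other chromosome 19 genes one of 0.03.

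By library, the 141 genes together took 0.271%, 0.272% and 0.269% of all counts in GFP-812 replicates 1, 2 and 3, against 0.297%, 0.291% and 0.282% in GFP replicates 1, 2 and 3. The groups did not overlap, and GFP replicate 3 lay nearest to the GFP-812 libraries. GFP replicate 1 held the highest of the 6 log2 CPM values in 55 of the 141 genes, more often than any other library, and GFP-812 replicate 1 the lowest in 38. The member median was -0.07 without GFP replicate 1 and -0.10 without GFP replicate 3. Ribosomal protein symbols, which differ between the same libraries, took 6% to 6.05% of counts in GFP-812 libraries, against 5.53%, 5.35% and 6.05% in GFP replicates 1, 2 and 3; their part in the result was not tested.

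**Figure D3:**
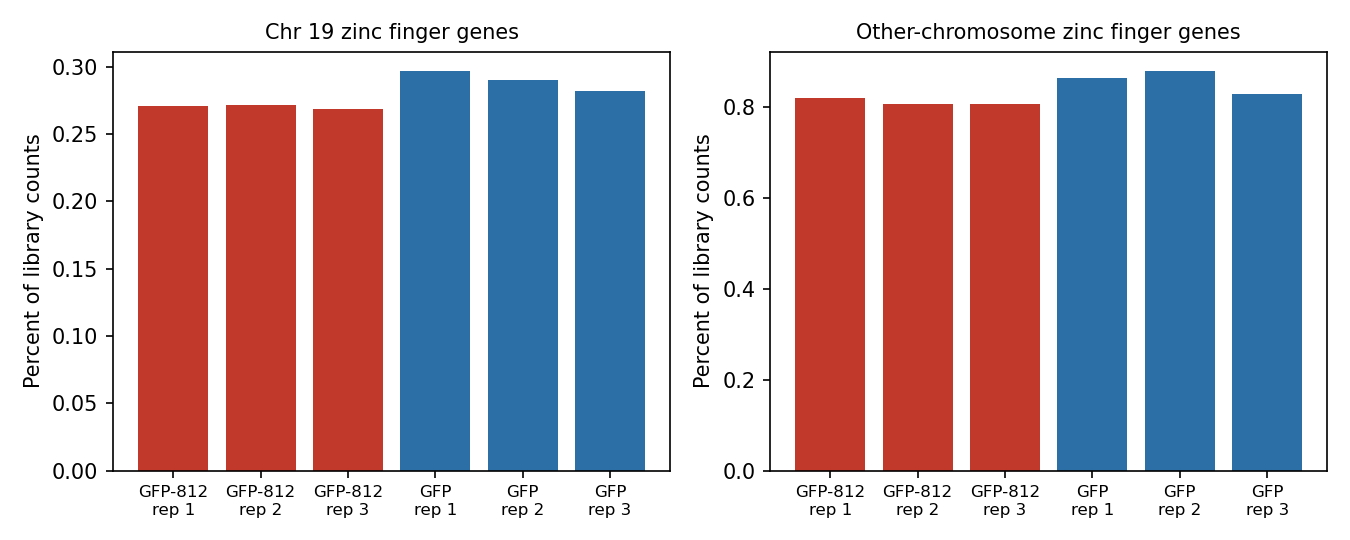
Percent of each library's counts in the 141 chromosome 19 zinc finger genes (left) and in the 204 zinc finger genes of other chromosomes (right), with GFP-812 libraries before GFP libraries and axes from 0. On the left the GFP-812 libraries sit at 0.269% to 0.272% and the GFP libraries at 0.282% to 0.297%.

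Base composition and length moved weakly with the fold change. The members' longest transcripts had a median GC fraction of 0.42, against 0.48 over all genes tested, and a median exonic size of 5578 bases against 4862. Across all genes tested, a description over genes that share libraries, Spearman's rho with the log2 fold change was 0.10 for GC and -0.12 for exonic size; across members it was -0.07 and -0.10. After removing both properties from each library the member median was -0.08, against a median of -0.0068 over all genes tested. Without the correction these medians were -0.09 and 0.0069. In the corrected fit 5 members fell, when 2.96% of all genes tested did, and 4 of them were among the 5 above. ZNF324 (adjusted p = 0.0678 without the correction) took the place of ZNF507.

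Members lay in 15 of the 17 blocks into which zinc finger symbols of the chromosome fall when a new block begins at any gap of over 1 Mb between starts. The 7 blocks with at least 5 members held 124 of them. All 7 medians lay below 0, from -0.04 in block 3 (hg38 positions 11483427 to 12640098, 7 members) to -0.11 in block 17 (55476617 to 58481230, 37 members). The median of block 3 turned to 0.01 when GFP replicate 1 was left out, and was 0.01 and 0.0049 when GFP replicate 2 or GFP-812 replicate 3 was, so that its sign rests on those libraries. The medians were -0.09 in block 2 (7069703 to 9793180, 11 members), -0.10 in block 6 (19668796 to 24129968, 12 members), -0.11 in block 10 (36182276 to 37817300, 20 members), -0.06 in block 13 (43525497 to 45076478, 16 members) and -0.09 in block 16 (51571283 to 53580269, 21 members). Spearman's rho of the log2 fold change with the start position was -0.12 over the 141 members.

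**Figure D4:**
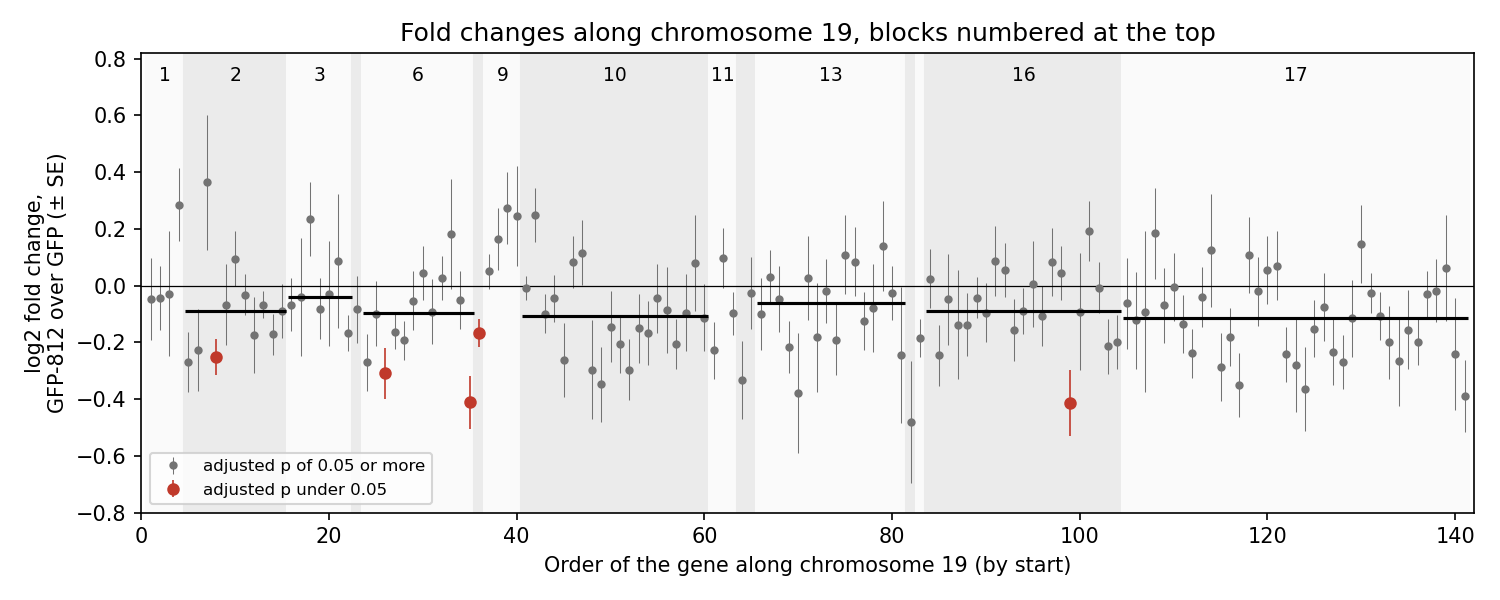
Log2 fold changes (GFP-812 over GFP, bars of 1 SE) of the 141 genes in their order along chromosome 19, with blocks shaded and the larger ones numbered; black lines mark the medians of blocks of at least 5 members and red points the 5 fallen genes. Every black line lies below 0, and the 4 points of block 9 lie above it.

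The 5 fallen genes were scattered over 4 blocks. Block 6 held ZNF254 and ZNF430, block 2 held ZNF317, block 16 held ZNF888, and ZNF507 stood alone in block 8. Blocks 10 and 17, with 57 members between them, held none, beside 3.41% fallen among all genes tested at a mean of at least 1 FPKM. At an unadjusted edgeR p under 0.05, 4 members of block 10 and 9 of block 17 were lower, and 1 and 0 higher. Within the larger blocks the members of smallest p that did not pass were ZNF548 in block 17, ZNF585A in block 10, ZNF791 in block 3 and ZNF45 in block 13. ZNF548 stood at 1.86, 2.13 and 2.54 FPKM in GFP-812 libraries, against 3.2, 2.73 and 2.52 FPKM in GFP libraries, so that its groups overlapped (log2 fold change -0.35, SE 0.114, adjusted p = 0.0677). It passed in 5 of its 18 alternatives. ZNF791 stood at 6.9 to 6.95 FPKM in GFP-812 libraries and 7.55 to 8.28 FPKM in GFP libraries, without overlap, at a log2 fold change of -0.17 (adjusted p = 0.144). ZNF585A and ZNF45 were at -0.30 and -0.22 (adjusted p = 0.116 and 0.203).

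Block 9 (34542462 to 34964229) was the single block with members and no value below 0. Its 4 members, ZNF302, ZNF181, ZNF30 and ZNF792, had log2 fold changes of 0.05, 0.16, 0.27 and 0.24 (SE 0.0608, 0.11, 0.127 and 0.177), and none passed (adjusted p 0.265 to 0.747). The longest unbroken run of values below 0 was of 11 neighbours in block 10, from ZNF790 to ZNF570 (36817428 to 37488652), again with no call. These stretches were picked after their values were seen. Over all 126 neighbouring pairs within blocks the median absolute difference of log2 fold changes was 0.144, against 0.151 over all 9870 pairs of members.

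Medians differed little by finger count or KRAB match. Members with the KRAB pattern had a median of -0.09 (4 of 118 fell) and those without it one of -0.10 (1 of 22 fell). The medians were -0.10, -0.08 and -0.10 with at most 9, with 10 to 15 and with 16 or more fingers, and rho with the finger count was 0.04. Members on the plus strand had a median of -0.10 with 66 of 80 below 0 and 4 fallen, and those on the minus strand one of -0.07 with 39 of 61 below 0 and 1 fallen; this difference was noticed in the data and not tested.

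Among members with a well described role, chosen after their values were seen, none passed. ZNF274, which binds the ends of other zinc finger genes and brings SETDB1 to them, stood at 3.53, 3.3 and 3.44 FPKM in GFP-812 libraries, against 4.51, 3.62 and 3.74 FPKM in GFP libraries (log2 fold change -0.20, SE 0.0823, adjusted p = 0.19). ZNF473, which takes part in processing the ends of histone messenger RNAs, stood at 6.37, 6.21 and 5.78 FPKM in GFP-812 libraries and 7.41, 6.74 and 6.88 FPKM in GFP libraries (log2 fold change -0.19, SE 0.0674, adjusted p = 0.117). Neither gene's groups overlapped. ZNF224, known as a repressor of the aldolase A gene, and ZNF420, known as a repressor of p53 targets, had log2 fold changes of -0.02 and -0.21 (adjusted p = 0.96 and 0.311).

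The levels of the family were low. The median member stood at 2.52 FPKM, 90 of the 141 lay under 3 FPKM and 6 reached 10 FPKM. Counts per member and library ran from 28 to 5903, with a median of 219. ZNF146, whose protein consists almost wholly of fingers, led with 81.9, 82.6 and 79.9 FPKM in GFP-812 libraries, against 88.3, 80.6 and 79.2 FPKM in GFP libraries. Its groups overlapped (log2 fold change -0.01, SE 0.0409, edgeR adjusted p = 0.95), and the value was 0.04 without GFP replicate 1. ZNF121, ZNF428 and ZNF302 followed, at means of 17.4, 12.6 and 10.9 FPKM and log2 fold changes of -0.07, 0.03 and 0.05 (adjusted p = 0.515, 0.92 and 0.747). ZNF146, ZNF121 and ZNF428 have no KRAB match. ZNF850, with the most fingers, stood at 1.64, 1.79 and 1.84 FPKM in GFP-812 libraries, against 1.48, 1.81 and 1.63 FPKM in GFP libraries, at 0.12 (adjusted p = 0.674).

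**Figure D5:**
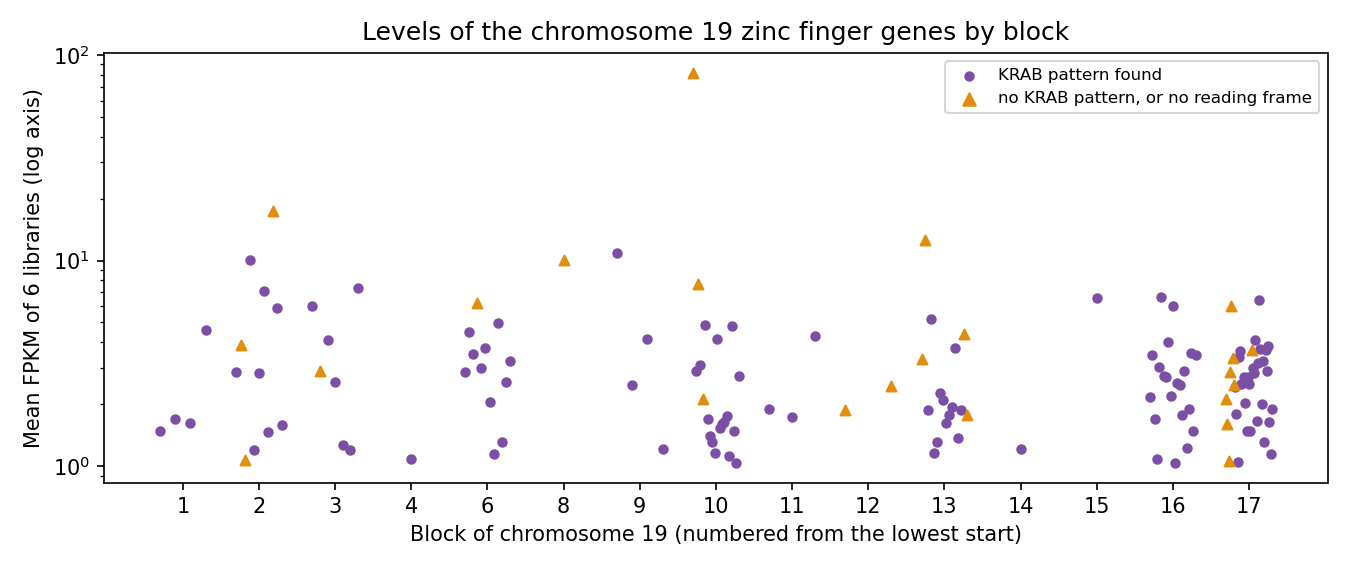
Mean FPKM over 6 libraries (log axis) of each of the 141 genes, by block of chromosome 19 and with genes in order of start within a block. ZNF146 in block 10 stands at 82.1 FPKM, while the median gene stands at 2.52 FPKM.

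The share of symbols that reached 1 FPKM differed between blocks. In block 10 it was 20 of 27 rows (74.1%), in block 6 it was 12 of 42 (28.6%) and in block 3 it was 7 of 28 (25%). At the minimum of 1 FPKM, ZNF571 and ZNF611 lay just inside at means of 1.03 and 1.04 FPKM, and ZNF653 and ZNF773 just outside at 0.988 and 0.998 FPKM. Of the 122 symbols under the minimum, 16 had no count in any library and 54 passed the count filter and were tested.

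Near-identical copies and overlapping genes bear on single values. In 39 members at least 1% of the 100-base windows of the longest transcript also occurred in a transcript of another gene, and in 17 members at least 10% did. ZNF320 and ZNF468, adjacent in block 16, had 93.3% and 99.1% of their windows in each other's transcripts, so that their values (log2 fold changes 0.04 and 0.08) are uncertain. The shares were 4.2% in ZNF254, 3.3% in ZNF888 and 0% in ZNF317, ZNF430 and ZNF507. ZNF324, ZNF585A and ZNF548, which did not pass in the main fit, had 29.4%, 10.8% and 5.93%. Spans of 97 members overlap another gene of the table, and whether strand was used in counting is not given in the sources used here. ZNF317 and ZNF507 overlap none. The genes that overlap ZNF254, ZNF430 and ZNF888 stood at means under 0.24 FPKM, and the one with most reads, inside ZNF254 on the same strand, had 281 counts over the 6 libraries. The median log2 fold change was -0.08 in the 44 members with no overlap (2 fell) and -0.09 in the other 97 (3 fell).

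Promoter sequence is shown for 4 of the 5 fallen genes and for the pair of highest level, so that genes that moved and genes that did not can be set side by side. RefSeq windows on GRCh38.p14, from 250 bases before to 50 after a transcript start, were matched to 126 members by symbol, and 110 of them lay within 1000 bases of the start in the deposited table; for ZNF254 the RefSeq start lies 53782 bases inside the gene's span. ZNF888 is not shown. Capitals mark every match, on either strand, to the motifs named below.
ZNF254 (chr19:24086937-24087236, plus strand): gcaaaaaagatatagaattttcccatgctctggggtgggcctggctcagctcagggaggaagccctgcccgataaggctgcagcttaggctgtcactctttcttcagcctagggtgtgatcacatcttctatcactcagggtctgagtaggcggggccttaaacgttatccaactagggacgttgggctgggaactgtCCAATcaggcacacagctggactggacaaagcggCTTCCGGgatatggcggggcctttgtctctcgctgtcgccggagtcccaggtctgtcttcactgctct
ZNF430 (chr19:21020407-21020706, plus strand): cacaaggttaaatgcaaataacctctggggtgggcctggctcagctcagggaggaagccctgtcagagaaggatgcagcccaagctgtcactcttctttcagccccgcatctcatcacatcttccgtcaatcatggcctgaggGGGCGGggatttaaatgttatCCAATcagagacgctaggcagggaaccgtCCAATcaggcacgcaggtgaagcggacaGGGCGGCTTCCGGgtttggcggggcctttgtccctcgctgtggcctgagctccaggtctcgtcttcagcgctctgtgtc
ZNF317 (chr19:9140147-9140446, plus strand): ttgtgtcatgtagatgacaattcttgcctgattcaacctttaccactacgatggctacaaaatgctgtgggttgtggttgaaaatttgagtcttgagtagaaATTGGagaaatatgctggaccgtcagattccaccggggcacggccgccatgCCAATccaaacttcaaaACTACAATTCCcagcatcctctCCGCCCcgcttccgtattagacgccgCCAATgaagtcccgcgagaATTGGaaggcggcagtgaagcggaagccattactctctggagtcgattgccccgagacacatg
ZNF507 (chr19:32345360-32345659, plus strand): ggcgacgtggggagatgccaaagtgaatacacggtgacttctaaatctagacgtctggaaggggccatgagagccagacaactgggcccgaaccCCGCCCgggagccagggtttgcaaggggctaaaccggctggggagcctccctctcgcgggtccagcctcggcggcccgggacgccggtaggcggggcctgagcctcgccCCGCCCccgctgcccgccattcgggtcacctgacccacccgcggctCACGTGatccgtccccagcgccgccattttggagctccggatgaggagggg
ZNF146 (chr19:36214856-36215155, plus strand): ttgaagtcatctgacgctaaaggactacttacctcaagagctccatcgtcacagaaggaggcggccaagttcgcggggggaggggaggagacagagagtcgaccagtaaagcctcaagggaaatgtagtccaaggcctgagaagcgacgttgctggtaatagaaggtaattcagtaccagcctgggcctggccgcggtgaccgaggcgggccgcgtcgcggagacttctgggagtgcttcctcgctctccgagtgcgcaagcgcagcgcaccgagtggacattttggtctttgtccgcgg
ZNF121 (chr19:9584455-9584754, minus strand): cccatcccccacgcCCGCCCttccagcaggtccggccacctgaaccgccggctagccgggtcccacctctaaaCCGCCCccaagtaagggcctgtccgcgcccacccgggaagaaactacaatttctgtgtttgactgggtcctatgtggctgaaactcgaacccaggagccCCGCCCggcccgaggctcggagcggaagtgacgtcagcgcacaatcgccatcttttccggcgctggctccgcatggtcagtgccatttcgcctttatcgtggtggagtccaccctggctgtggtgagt

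The windows of ZNF254 and ZNF430 were alike, with 234 identical bases (78% of the window) in a global alignment, while the other 14 pairs among these 6 genes had 34.3% to 47.7%. Both hold the CCAAT box and, near the start, the ETS family core CCGGAAG read on the other strand as CTTCCGG. In all, 48 pairs of members shared at least 70% of the window. All 48 lay within a block, 29 of them in block 6 and 12 in block 16, and no pair between blocks reached 70%. The 9 members of block 6 in such pairs did not move as one: log2 fold changes were -0.41 for ZNF254, -0.31 for ZNF430, -0.19 for ZNF431, -0.16 for ZNF714, -0.09 for ZNF493, -0.05 for ZNF708 and for ZNF675, 0.03 for ZNF100 and 0.18 for ZNF724. Over the 48 pairs the median absolute difference was 0.163, against 0.151 over all pairs of members, and this was not tested.

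The ETS core was found in 59 of 126 member windows (46.8%), against 36.6% of windows of zinc finger genes of other chromosomes and 20.8% of all 9223 genes with a window at a mean of at least 1 FPKM. The CCAAT box was in 51.6%, 44.5% and 37.7% of the same sets, and the GC box GGGCGG in 59.5%, 65.9% and 72.6%. The E-box CACGTG was in 4.76% of member windows and 10.5% of all, and the TATA box TATAAA in 2.38% and 4.91%. The palindromic NRF1 site was in 2.38% and 2.59%, and the core of the ZNF143 site, present in ZNF317, in 1.59% and 0.629%. In ZNF430 a GGGCGG and a CTTCCGG abut and form 1 run of capitals. A match is a description of letters and not of a bound site. The windows had a median GC of 61% in members, 62.2% in zinc finger genes of other chromosomes and 65.7% in all genes. Of the 126 member windows 32 were in the 48 similar pairs, so the windows are not separate observations of a motif. The part of either in these shares was not tested.

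The proteins that KRAB zinc fingers work with were measured beside them, on a list of 28 genes of the TRIM28 and SETDB1 pathway. Of these 2 fell, 0 rose and 26 did not pass, against the same background of 2.67% and 1.18%, at a list median of -0.04. All 28 stood at a mean of at least 1 FPKM, a level at which 3.41% of genes tested fell and 1.43% rose. At an unadjusted edgeR p under 0.05, 7 of the 28 were lower and 4 higher, against 8.9% and 7.24% of all genes tested. At a mean of at least 1 FPKM, 1356 of 12563 genes were lower and 990 higher. MORC3, an ATPase of heterochromatin, stood at 9.61, 9.13 and 9.93 FPKM in GFP-812 libraries, against 11.57, 11.57 and 11.55 FPKM in GFP libraries (log2 fold change -0.26, SE 0.0569, edgeR adjusted p = 0.00251). DNMT1, the maintenance DNA methyltransferase, stood at 15.9, 15.9 and 15.7 FPKM in GFP-812 libraries, and at 17.9, 18.6 and 16.7 FPKM in GFP libraries (log2 fold change -0.15, SE 0.0414, edgeR adjusted p = 0.023). In neither gene did the groups overlap.

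TRIM28 stood at 55.0, 53.5 and 52.2 FPKM in GFP-812 libraries, against 56.7, 58.3 and 58.1 FPKM in GFP libraries, with no overlap (log2 fold change -0.10, SE 0.0406, adjusted p = 0.203). It passed after the GC and size correction (-0.14, adjusted p = 0.0279; 0.0126 to 0.585 over all alternatives). SETDB1 stood at 8.2, 8.33 and 8.48 FPKM in GFP-812 libraries and 8.51, 9.26 and 8.43 FPKM in GFP libraries, and its groups overlapped (log2 fold change -0.05, SE 0.0586, adjusted p = 0.712). Leaving out GFP replicate 3 raised the count of fallen pathway genes to 5, and 3 then rose. Of all genes tested, 4.69% fell in that fit. The count of fallen pathway genes was 0 when GFP-812 replicate 2 was left out and 1 when any of the other 4 libraries was. MORC3 lost its call without GFP-812 replicate 2 (adjusted p = 0.0741), and DNMT1 without any single library except GFP replicate 3 (0.0575 to 0.155).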

How the data were processed

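Poly(A) RNA of 6 libraries was sequenced. The submitters' processing notes name HISAT2 2.2.1 and HTSeq 0.6.1, with cutadapt 1.9.1 and FastQC 0.10.1, and the build hg38; the annotation release and strand setting were not given in the sources used here. The authors deposited raw counts per gene and, per the file headers, FPKM for each library. Dividing each count by exonic size and library total returned the FPKM of every value with a largest difference of 0.005, so the deposited FPKM carry no further normalization.

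Counts were tested with edgeR 4.0.16 in R 4.3.3 (filterByExpr, TMM, quasi-likelihood test, group as the single term, all 6 libraries), with Benjamini-Hochberg adjustment of 2-sided p-values over 16834 genes and a threshold of 0.05. SEs were computed from the F statistic. Means are over 3 libraries per group. Log2 CPM used a prior count of 2. Within groups, replicate pairs differed by 2.12 to 4.05 times the counting variance, so none was a repeat deposit.

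Members and lists were chosen with earlier results of these data known. Named genes are the called members, the 4 of highest FPKM, the smallest p in each block of at least 5 members, the gene with the most fingers, TRIM28, SETDB1, called pathway genes and NEK1, with the genes on either side of the FPKM minimum; other genes given values (those with a described role, the ends of the range, block 9, near-identical copies, similar promoters, and those in the closing section) were chosen after their values were seen. Reading frames and 100-base windows came from GENCODE 29 transcripts, windows matched on the same strand; finger and KRAB matches are letter patterns. Promoters came from RefSeq (GRCh38.p14) and were aligned with match 1, mismatch 0 and gap costs of 2 and 0.5. The planned protein sequences were not used here. The script was tested on simulated counts. Alternatives were DESeq2 1.42.0, limma 3.58.1 (voom, or log2(FPKM + 1) and log2(FPKM + 0.1)), other scalings and filters, corrections by splines with 4 degrees of freedom, the replicate number as a block, other members or gaps, and leaving out each library.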

Additional observations from a re-analysis of the deposited data

How the results depend on the processing

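The member median stayed between -0.10 and -0.07 in 22 of 23 alternatives, and was -0.063 in limma on log2(FPKM + 1), a scale that shrinks low genes. In alternatives that refitted all genes, the median over all genes ran from -0.0115 (limma on log2(FPKM + 0.1)) to 0.0178 (DESeq2). Of the alternatives, none gave a risen member except a minimum of 0.5 FPKM, which added 1. Fallen members numbered 2 in DESeq2, which gave an adjusted p to 12 members, only 2 of them among the 5 called here. Of the 5754 genes given one there, 6.17% fell. In limma with either pseudocount 0 members fell, when 0.0077% of all genes tested did. In the main fit 2 of 18 members at a minimum of 5 FPKM fell, and 2 of 44 with no overlapping gene. Of 102 members with under 1% shared windows (an alternative chosen after seeing the data) 3 fell. Beside these, 3.41% of all genes tested at a mean of at least 1 FPKM fell. With the replicate block and exonic size correction 8 members fell, when 3.93% of all genes tested did. Without single libraries 0 to 10 members fell, beside the shares of all genes given above. All genes called numbered 4 in limma with either pseudocount and 209 to 1317 without single libraries; fallen pathway genes numbered 0 in limma with either pseudocount and 0 to 5 without single libraries, and risen ones 0 to 3. Block medians ranged, without single libraries, from -0.148 to -0.043 in block 2, -0.142 to -0.0925 in block 6 and -0.0838 to -0.0556 in block 16, the last at -0.0513 in limma on log2(FPKM + 1); the lowest block median ranged from -0.161 to -0.111, and was -0.153 at gaps of 0.5 Mb. The cause of these shifts was not tested. With the replicate number as a block 6 members fell, the same 5 and ZNF548 (adjusted p = 0.0328). In that fit 777 genes were called in all, and 3.04% of all genes tested fell. Same-numbered libraries did not deviate together (correlations of 0.03, -0.01 and 0.01 for numbers 1, 2 and 3), so the numbers were not taken as pairs. At a median of 219 counts per member and library, the median SE of a member was 0.116 on the log2 scale.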

Other observations

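Below the minimum of 1 FPKM, 54 zinc finger symbols of chromosome 19 were tested, of which 1 rose (1.85%), 0 fell and 53 did not pass. Across all genes tested 1.18% rose and 2.67% fell. The log2 fold change was below 0 in 39 of the 54, against 48.2% of all genes tested. Its median was -0.10, at a median SE of 0.244. The risen gene, ZNF565 (ENSG00000196357, hg38 chromosome 19, 36182276 to 36246257, minus strand), lies at the lower edge of block 10. It had 66, 72 and 76 counts in GFP-812 libraries, against 50, 39 and 37 counts in GFP libraries, or 1.24, 1.23 and 1.15 FPKM in GFP-812 libraries, against 0.83, 0.65 and 0.62 FPKM in GFP libraries. The groups did not overlap (log2 fold change 0.80, SE 0.22, edgeR adjusted p = 0.0236), and the call was lost without any single GFP-812 library or without GFP replicate 2 (adjusted p 0.0668 to 0.109). Its span encloses ZNF146, the member of highest level, on the other strand, and the strand setting of the counting was not given in the sources used here.

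ZFP, ZSCAN, ZIM and ZIK symbols of chromosome 19, other C2H2 genes, with a mean of at least 1 FPKM numbered 4, and none passed. ZSCAN22 stood at 1.37 ± 0.153 FPKM in GFP-812 libraries and 1.85 ± 0.112 FPKM in GFP libraries (SD, n = 3 each; edgeR log2 fold change -0.42, adjusted p = 0.111). ZFP14, in block 10 near ZNF565, stood at 1.22 ± 0.148 FPKM in GFP-812 libraries and 0.953 ± 0.107 FPKM in GFP libraries (SD, n = 3 each; edgeR log2 fold change 0.37, adjusted p = 0.146). ZNF566, the member next after ZNF146 along the chromosome, stood at 3.25, 3.16 and 3 FPKM in GFP-812 libraries, against 2.5, 2.71 and 2.76 FPKM in GFP libraries (log2 fold change 0.25, edgeR adjusted p = 0.149).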
